A study of Mus musculus with 13 samples.

Results

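The insulin-like growth factor (Igf) family was followed through 13 basal cell carcinomas of the mouse, using the rows of the deposited count table that carry 10 gene symbols. These are the ligands Igf2 and Igf1, the receptors Igf1r and Igf2r and the binding proteins Igfbp2, Igfbp3, Igfbp4, Igfbp5, Igfbp6 and Igfbp7. All 10 were among the 21100 genes of the table, and all 10 passed the filter on low counts that left 14390 genes for testing. The members were listed by name, as a gene family, but with earlier results of these data known.

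Bulk RNA sequencing of poly(A) RNA had been done on 9 genetically engineered tumors (GEM-BCC) and on 4 transplanted tumors (Tp-BCC), with 1 library per tumor. GEM-BCC tumors arose in the dermis of Ptch1+/- K14-CreER2 p53fl/fl mice, in which the keratin 14 promoter drives a Cre recombinase that tamoxifen switches on, after 3 intraperitoneal injections of 300 µg tamoxifen and 1 X-ray dose of 4 Gy. Tp-BCC tumors grew under the skin of the right flank of Ptch1+/-p53fl/fl mice, which lack the Cre transgene, after inoculation of 2000000 tumor cells. The line was begun with cells of a GEM-BCC tumor and, per the study's methods, handed on from host to host by serial transplantation, and the passage of the sequenced tumors was not given in the sources used here. Both groups share the heterozygous Ptch1 allele and the floxed p53 allele, all mice were female, and age was not given in the sources used here. The 9 GEM-BCC tumors came from 7 mice, since GEM2 and GEM3 grew on 1 mouse and GEM7 and GEM8 on another. The 4 Tp-BCC tumors grew in 4 mice, but all descended from a single GEM-BCC tumor, so that their spread is that of 1 tumor line. GEM-BCC libraries belong to the batch labelled 1 and Tp-BCC libraries to the batch labelled 2, and batch and model cannot be told apart. The comparison asks how far a transplanted tumor keeps the expression of the tumors it is meant to stand for.

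Igf1 and Igf2 are secreted growth factors that signal for growth and survival through Igf1r, a receptor tyrosine kinase upstream of the phosphoinositide 3-kinase and MAP kinase routes. Igf2r, which is also the mannose 6-phosphate receptor, takes up Igf2 for degradation in lysosomes. Binding proteins hold the ligands outside the cell, lengthen their life and limit or direct their access to the receptor. Igf2 is an imprinted gene read from the paternal copy, and it is known to be induced where Hedgehog signaling is active.

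Total expected counts ran from 28075317 to 32629102 over the GEM-BCC libraries, while the Tp-BCC libraries held 15388027 to 17494912. Libraries differed in how gene level followed GC content. The rank correlation of a library's gene levels with transcript GC, after each gene's mean was taken out, was −0.389 in TP1 and −0.473 in TP3 but 0.594 in TP2 and 0.591 in TP4. In GEM-BCC tumors it was 0.365 in GEM1 and −0.312 to −0.150 in the other 8. The Tp-BCC tumors thus fell into pairs on opposite sides, and for a number of results the value with each library's GC trend removed is given as well. The 10 markers of basal keratinocytes and basal cell carcinoma summed to 12608 to 18576 CPM (counts scaled to a common library total) in GEM-BCC tumors, and in Tp-BCC tumors to 9835 to 22861 CPM, and 0 of 10 passed edgeR's quasi-likelihood test at an adjusted p of 0.05, beside 3 at an unadjusted p under 0.05 and 1 past the adjusted p in DESeq2's Wald test. Of all tested genes, 19.4% passed that adjusted p in edgeR's test. In bulk tumors, fewer cells of a type and less RNA per cell cannot be told apart.

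RefSeq start sites of assembly GRCm38.p6 gave 14 upstream windows of 250 bases for the 10 members, with more than 1 start for Igf2 (4 starts) and Igfbp2 (2 starts). The windows of the members called changed below are shown so that the upstream letters of the gene that was lower and of the gene that was higher can be set side by side. For Igf2 these are the start farthest upstream and the one farthest downstream, on the minus strand of chromosome 7 (chr7:142666817-142667066 and chr7:142657497-142657746). For Igfbp2 it is the upstream start, on the plus strand of chromosome 1 (chr1:72824230-72824479). No exon of GENCODE vM21 lies in these 3 windows. They are written 5′ to 3′, and capitals mark the GC box GGGCGG, the letters bound by Sp1 factors, on either strand.
Igf2, upstream start: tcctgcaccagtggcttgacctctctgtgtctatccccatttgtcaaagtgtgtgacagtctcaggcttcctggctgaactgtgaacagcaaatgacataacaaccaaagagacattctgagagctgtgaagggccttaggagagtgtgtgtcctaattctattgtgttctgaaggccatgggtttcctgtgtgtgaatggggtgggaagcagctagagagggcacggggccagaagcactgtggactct
Igf2, downstream start: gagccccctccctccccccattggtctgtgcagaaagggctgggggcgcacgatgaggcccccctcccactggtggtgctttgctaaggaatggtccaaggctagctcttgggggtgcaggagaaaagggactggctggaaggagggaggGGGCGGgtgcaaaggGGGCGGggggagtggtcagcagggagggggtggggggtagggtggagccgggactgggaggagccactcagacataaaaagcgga
Igfbp2, upstream start: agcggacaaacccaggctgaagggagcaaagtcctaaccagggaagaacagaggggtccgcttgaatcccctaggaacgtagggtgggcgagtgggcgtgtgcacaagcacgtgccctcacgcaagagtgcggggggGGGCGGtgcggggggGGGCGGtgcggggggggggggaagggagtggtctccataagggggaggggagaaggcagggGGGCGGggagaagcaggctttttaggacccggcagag
The upstream Igf2 window was 50.8% GC with 1 CpG and no GC box, whereas the downstream window was 66.0% GC with 6 CpGs and 2 GC boxes. The Igfbp2 window was 67.2% GC and held 14 CpGs and 3 GC boxes. Over all members, the GC box was present in 6 of 14 windows, from 5 of 10 genes, against 32.7% of 32851 windows of the same length. The letters TATAAA were present in 2 of 14 windows, those of Igfbp4 and Igfbp6, against 12.4% of all windows. The Gli site GACCACCCA, the binding site of the Hedgehog effectors, was in 0 of 14 windows and in 0.225% of all windows, with both strands searched. The table does not tell which Igf2 start was used.

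Among the 10 members, Igf2 was lower and Igfbp2 was higher in Tp-BCC tumors, and the other 8 did not pass the test. A gene was called when the adjusted p was under 0.05 and the fold change exceeded 2 on the log2 scale. Thus 2 of 10 members passed the adjusted p, where 19.4% of all tested genes did, and the same 2 were called, where 5.57% of all tested genes were. The share past the adjusted p is near that of all tested genes. By direction, 1 of 10 was past the adjusted p and higher (11.1% of all genes) and 1 of 10 was past it and lower (8.35%), and for calls the shares of all genes were 2.36% higher and 3.21% lower. The sign of the log2 fold change was positive for 3 members and negative for 7, and its median was −0.22, beside −0.03 over all tested genes. Values of the 2 models did not overlap for 1 of 10 members, Igfbp2, against 9.95% of all tested genes.

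**Figure D1:**
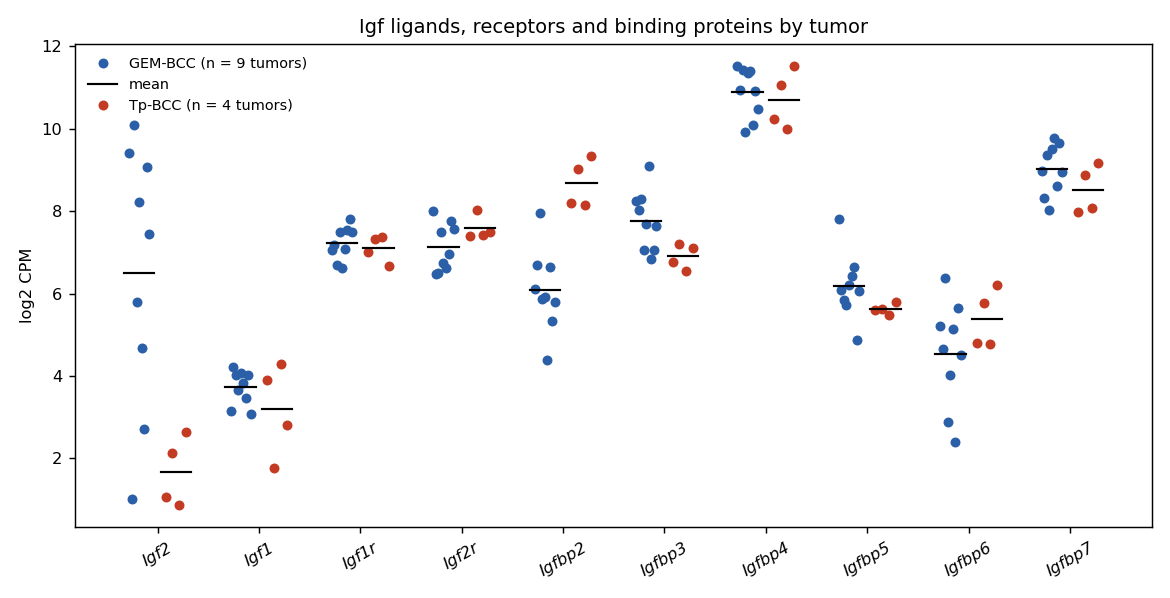
Level of each of the 10 genes in every tumor, in log2 CPM, with GEM-BCC tumors (n = 9) in blue and Tp-BCC tumors (n = 4) in red; the black lines are group means. Igf2 spread from 1.00 to 10.10 among GEM-BCC tumors and lay between 0.86 and 2.64 in Tp-BCC tumors, and Igfbp2 was higher in all 4 Tp-BCC tumors than in any GEM-BCC tumor.

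Igf2 was the member that differed most, between models and also from one GEM-BCC tumor to the next. In GEM-BCC tumors it measured 1.93 CPM in the lowest tumor (GEM2), 175.5 CPM in the median tumor and 1095 CPM in the highest (GEM3). In Tp-BCC tumors it measured 2.00 CPM in TP1, 4.31 CPM in TP2, 1.74 CPM in TP3 and 6.14 CPM in TP4. In reads these are 53 to 34631 counts against 29 to 86 counts, so that Igf2 was still counted in every Tp-BCC tumor. Of the 9 GEM-BCC tumors, 8 exceeded the highest Tp-BCC tumor, and GEM2 lay inside the Tp-BCC range. Mean levels were 320 ± 380 CPM (SD, n = 9) and 3.55 ± 2.08 CPM (SD, n = 4). The fitted log2 fold change, which compares mean counts, was −6.50 (SE 1.58), with an adjusted p of 0.0106 by edgeR's quasi-likelihood test. On the log2 CPM scale, where each tumor weighs alike, the difference of means was −4.82, with p = 0.0168 by a two-sided exact permutation test over 715 splits of the tumors (smallest p it can give, 0.0014). With 1 mean per mouse the difference was −5.04, with p = 0.00303 by the exact test over 330 splits, the smallest it can give. These means join GEM2, which lay inside the Tp-BCC range, with GEM3, the highest tumor, and GEM7 with GEM8. Leaving out TP3 brought the exact permutation p to 0.05 at a difference of −4.55, and leaving out any other tumor kept it between 0.00404 and 0.0455. With the GC trend removed the difference was −5.03.

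The spread of Igf2 among GEM-BCC tumors was itself unusual. The SD of its log2 CPM over the 9 tumors was 3.17, rank 8 of 14390 tested genes, beside a median of 0.44 over all genes. In both mice that gave a pair of tumors, the pair lay farther apart than the median pair from different mice. On the first mouse, GEM2 had 1.93 CPM and GEM3 had 1095 CPM, 569-fold apart. On the second, GEM7 had 6.43 CPM and GEM8 had 534 CPM, 83.1-fold apart. Among the 34 pairs of GEM-BCC tumors from different mice the median distance was 3.18 on the log2 scale, and the GEM2-GEM3 distance of 9.10 was larger than that of all 34 pairs. The other GEM-BCC tumors held 25.5 CPM in GEM6, 55.5 CPM in GEM4, 298 CPM in GEM5 and 685 CPM in GEM1, with the median tumor GEM9 between them. No gap set a high class apart from a low one, since the values covered the range in steps.

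Igf1 is the ligand under growth hormone control. It was 8.34 CPM in the lowest, 14.2 CPM in the median and 18.6 CPM in the highest GEM-BCC tumor. In Tp-BCC tumors it was 14.95 CPM in TP1, 3.34 CPM in TP2, 19.6 CPM in TP3 and 6.93 CPM in TP4. TP2 and TP4 lay below every GEM-BCC tumor and TP3 above every one, so the Tp-BCC tumors were spread more widely than the GEM-BCC tumors (SD of log2 CPM 1.14 against 0.42). The log2 fold change was −0.28 (SE 0.38, adjusted p 0.628 by edgeR). TP2 stayed lowest once the GC trend was removed, at 1.84 log2 CPM, beside 3.41 to 4.21 in the other 3. TP2 held 52 counts of Igf1.

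Ligand levels can be set against each other per kilobase of the longest coding transcript. Igf2 exceeded Igf1 in 7 of 9 GEM-BCC tumors, with a median ratio of 26.6 and up to 117 in GEM1. In GEM2 and GEM7 the order was turned, with Igf1 6.48 and 1.14 times Igf2. In Tp-BCC tumors Igf1 was 5.00 times Igf2 in TP1 and 7.55 times in TP3, while Igf2 was 1.92 times Igf1 in TP2 and 1.32 times in TP4. Taking the median transcript length in place of the longest, Igf2 exceeded Igf1 in 6 of 9 GEM-BCC and 0 of 4 Tp-BCC tumors, so the order in TP2, TP4 and GEM6 depends on the length. The longest Igf2 transcript shares 75.7% of its 100-base words with the overlapping gene model Gm49394, which has no row in the table, and how such reads were shared out was not given in the sources used here.

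**Figure D2:**
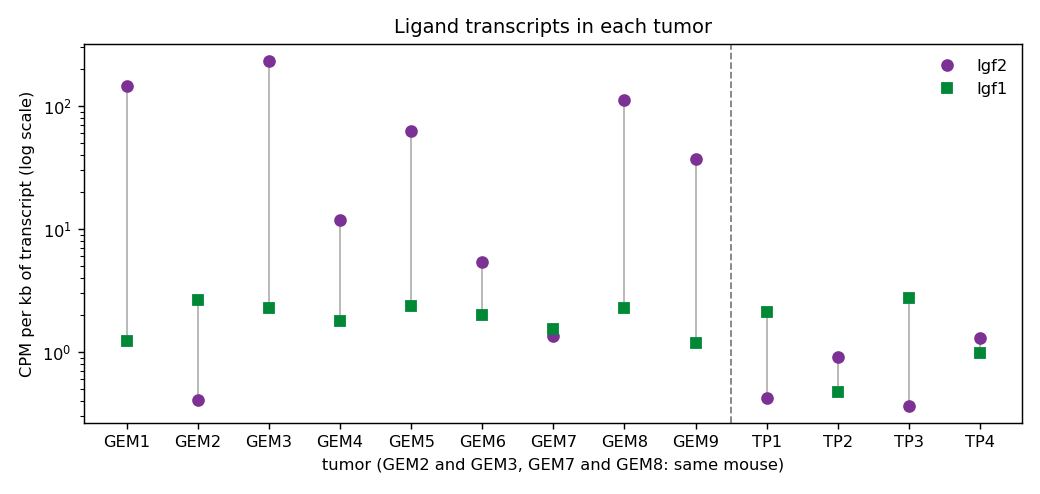
CPM per kb of Igf2 (purple circles) and Igf1 (green squares) in each tumor on a log axis; grey lines join the values of 1 tumor and the dashed line parts GEM-BCC from Tp-BCC tumors. Igf1 stayed between 0.474 and 2.78 CPM per kb, whereas Igf2 ran from 0.368 to 232 CPM per kb.

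At the locus, Igf2 lies between Mrpl23 and Th among the measured genes of chromosome 7, in RefSeq gene order. All 5 measured genes on each side were tested. Of these 10, 1 was past the adjusted p and lower (Th) and 1 was past it and higher (Tssc4, log2 fold change 0.91, SE 0.25, adjusted p 0.0187 by edgeR). Of all tested genes, 8.35% were past it and lower and 11.1% were past it and higher. Th, which encodes tyrosine hydroxylase of catecholamine synthesis, was 0.545 CPM in the lowest, 7.27 CPM in the median and 34.0 CPM in the highest GEM-BCC tumor. It was 0.765 CPM in TP1, 1.67 CPM in TP2, 0.419 CPM in TP3 and 1.78 CPM in TP4. Of 9 GEM-BCC tumors, 7 exceeded the highest Tp-BCC tumor, and GEM2 was the lowest for Th as it was for Igf2. The log2 fold change of Th was −2.99 (SE 0.92, adjusted p 0.0324 by edgeR), and over the 9 GEM-BCC tumors its log2 CPM had a Pearson r of 0.806 with that of Igf2, given as a description. The nearest measured gene on the other side, Mrpl23 of the mitochondrial ribosome, had a log2 fold change of 0.10 (SE 0.27), and the median over the 10 neighbors was 0.20. Ins2 had values in Tp-BCC tumors alone, at 0 to 1 counts. H19, the imprinted partner of Igf2, and the antisense gene Igf2os were not analysed here.

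Of 12079 genes screened, the 5 with the highest Pearson r to Igf2 over the 9 GEM-BCC tumors were Tie1 (0.946), Nos2 (0.945), Samhd1 (0.943), Lgi4 (0.937) and Cdo1 (0.933). They were picked as the top of that screen, from tumors that share mice, and carry no test. Tie1 is a receptor of endothelial cells, and Nos2 is the inducible nitric oxide synthase. Between models these genes went the other way from Igf2, with log2 fold changes of 1.65 for Tie1, 1.61 for Nos2, 1.06 for Samhd1, 1.89 for Lgi4 and 2.24 for Cdo1, all past an adjusted p of 0.05 by edgeR. Tie1 is also 1 of the 10 listed endothelial markers, whose summed level is given beside Igf2. That sum therefore holds a gene picked for its likeness to Igf2 in the same tumors. The 4 GEM-BCC tumors lowest in Igf2 (GEM2, GEM7, GEM6 and GEM4, up to 55.5 CPM) were also the 4 lowest in the endothelial sum, at 123 to 196 CPM beside 241 to 313 CPM in the other 5. Among those other 5 the orders differed. GEM1, with 685.5 CPM of Igf2, was lowest in the sum at 241 CPM, and GEM5, with 298 CPM of Igf2, was highest at 313 CPM. In Tp-BCC tumors the sum was 371 to 512 CPM, above every GEM-BCC tumor, where Igf2 was low, and 5 of 10 markers were past the adjusted p and higher with 0 lower. The other 5 markers did not pass, among them Pecam1, at a log2 fold change of 0.12 (adjusted p 0.788 by edgeR). Of all tested genes, 11.1% were past the adjusted p and higher. The part of endothelial cells in the Igf2 values was not tested.

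Receptor transcripts differed by less than the spread between tumors. Igf1r was 98.5 CPM in the lowest, 144 CPM in the median and 224 CPM in the highest GEM-BCC tumor, and 128, 161, 167 and 102 CPM in TP1 to TP4. All 4 Tp-BCC tumors lay inside the GEM-BCC range. Its log2 fold change was −0.14 (SE 0.24, adjusted p 0.702 by edgeR), and 0.06 (SE 0.19) with the GC trend removed. Igf2r was 88.1 CPM, 124 CPM and 259 CPM in the lowest, median and highest GEM-BCC tumor. It was 170 CPM in TP1, 260 CPM in TP2, 171 CPM in TP3 and 180 CPM in TP4, all above the GEM-BCC median, and 1 of them, TP2, lay just above the GEM-BCC range. After removal of the GC trend TP2, at 7.88 log2 CPM, lay below the highest GEM-BCC tumor, at 7.92. Its log2 fold change was 0.38 (SE 0.30, adjusted p 0.385 by edgeR). Per kilobase, Igf2r exceeded Igf1r in 6 of 9 GEM-BCC tumors (ratio 0.786 to 2.50) and in 4 of 4 Tp-BCC tumors (1.31 to 2.26).

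Igfbp2, a binding protein that prefers Igf2 as its ligand, was the member that was higher in Tp-BCC tumors. It measured 20.9 CPM in the lowest (GEM6), 59.8 CPM in the median and 249 CPM in the highest GEM-BCC tumor (GEM3). In Tp-BCC tumors it was 291 CPM in TP1, 517 CPM in TP2, 284 CPM in TP3 and 645 CPM in TP4. Every Tp-BCC tumor lay above every GEM-BCC tumor, TP3 by the least. Mean levels were 84.2 ± 67.2 CPM (SD, n = 9) and 434 ± 177 CPM (SD, n = 4), 5.16-fold apart, and the log2 fold change was 2.37 (SE 0.46, adjusted p 0.00264 by edgeR). Leaving out 1 tumor at a time gave log2 fold changes of 2.05 to 2.73, each past the adjusted p. With the GC trend removed the 4 Tp-BCC tumors drew together, at 8.41 to 8.54 log2 CPM (SD 0.06, from 0.59 before). The log2 fold change was then 1.98 (SE 0.44, adjusted p 0.00471), just under the fold required for a call.

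Some of the adipocyte markers moved in the same direction as Igfbp2 between models. Their sum was 14.0 to 36.4 CPM in GEM-BCC tumors, beside 28.4 to 97.3 CPM in the Tp-BCC group, and 4 of 7 tested markers were past the adjusted p and higher with 0 lower. Of the 4 that passed, Adipoq had a log2 fold change of 3.66 (adjusted p 0.00817) and Fabp4 of 3.83 (adjusted p 2.40e-04, both by edgeR). Adipoq was 19.6 CPM in TP2 but 1.32 to 2.36 CPM in TP1, TP3 and TP4. It reached 1.90 CPM in GEM-BCC tumors, so its ranges overlapped, whereas those of Fabp4 did not. The tested markers that did not pass were split, with log2 fold changes of −0.35 for Lpl, −0.14 for Pparg and 1.25 for Adrb3. Among Tp-BCC tumors the orders differed, with the adipocyte sum lowest in TP4 (28.4 CPM), where Igfbp2 was highest. Skeletal muscle markers summed to 51.3 CPM in 1 Tp-BCC tumor, TP4, and to at most 9.24 CPM in the GEM-BCC tumors. Pericyte markers were past the adjusted p and higher for 2 of 10 and macrophage markers for 1 of 10. Over all tested genes, 11.1% were past the adjusted p and higher and 8.35% were past it and lower. The pericyte and macrophage counts are near the first of these shares. Fibroblast markers were split, with 3 of 10 past it and higher and 2 of 10 past it and lower, and sums of 12376 to 49310 CPM in GEM-BCC tumors that spanned the 16122 to 29177 CPM of Tp-BCC tumors. The part of these cell types in the levels of the binding proteins was not tested.

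Igfbp3 carries most of the Igf in blood and is made by many tissues. It was 114 CPM in the lowest, 207 CPM in the median and 547 CPM in the highest GEM-BCC tumor, and 108 CPM in TP1, 147 CPM in TP2, 93.0 CPM in TP3 and 138 CPM in TP4. All 4 Tp-BCC tumors were below the GEM-BCC median and 2 were below its lowest tumor. The log2 fold change of −1.02 (SE 0.38) did not pass the test, with an adjusted p of 0.0690 by edgeR. It did pass with the GC trend removed, at −1.17 (SE 0.36, adjusted p 0.0255). It passed too in DESeq2's Wald test, at −1.03 (adjusted p 0.0252), and without GEM7, at −1.11 (adjusted p 0.0484).

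Igfbp7, which binds Igf weakly and is found in vessel walls and stroma, was 260 CPM in the lowest, 506 CPM in the median and 876 CPM in the highest GEM-BCC tumor. It was 253 CPM in TP1, 469 CPM in TP2, 270 CPM in TP3 and 573 CPM in TP4, with 3 of 4 below the GEM-BCC median. The log2 fold change was −0.52 (SE 0.34, adjusted p 0.292 by edgeR). With the GC trend removed, the SD over Tp-BCC tumors dropped from 0.58 to 0.08 on the log2 scale, and the log2 fold change was −0.88 (SE 0.29, adjusted p 0.0358). Of its 10 measured neighbors on chromosome 5, 8 were tested, with a median log2 fold change of 0.40 and 1 past the adjusted p, the mitochondrial GTPase gene Noa1 (1.21, SE 0.18, adjusted p 3.85e-04, higher). Of all tested genes, 11.1% were past the adjusted p and higher.

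**Figure D3:**
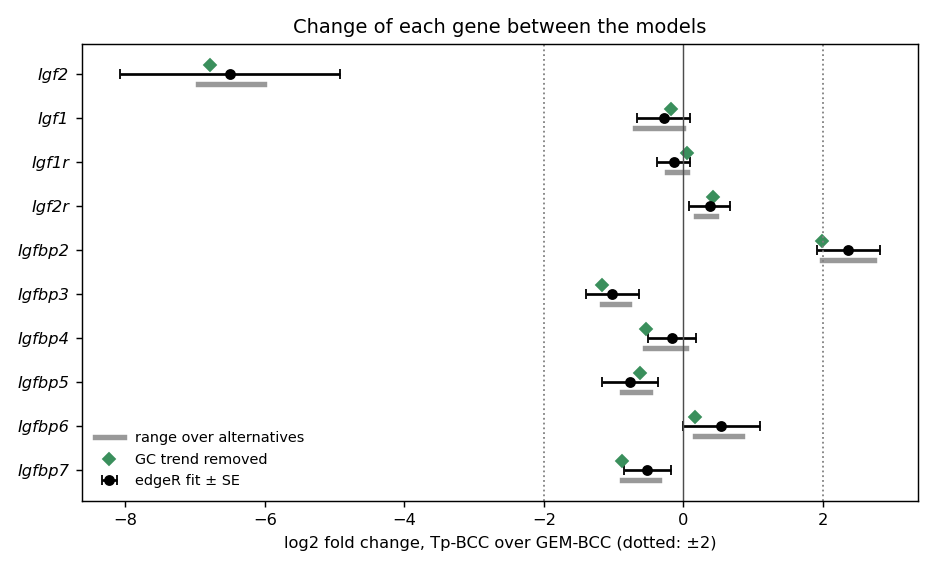
Log2 fold change of each gene, Tp-BCC over GEM-BCC, with its SE (black), with the GC trend of each library removed (green) and the range over the other settings and the fits without 1 tumor (grey, without the fits of 4 against 4 tumors). Only Igf2 (−6.50) and Igfbp2 (2.37) lie beyond the dotted lines at 2 and −2 in the main fit, and Igfbp2 lies at 1.98 with the GC trend removed.

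Igfbp4, an inhibitory binding protein, was the most abundant member in both models. It was 961 CPM in the lowest, 1954 CPM in the median and 2938 CPM in the highest GEM-BCC tumor, and 1213, 2124, 1015 and 2944 CPM in TP1 to TP4. As counted, the Tp-BCC tumors covered nearly the whole GEM-BCC range, and the log2 fold change was −0.16 (SE 0.35, adjusted p 0.774 by edgeR). After removal of the GC trend they lay at 10.24 to 10.76 log2 CPM, with an SD of 0.21 in place of 0.71, inside a GEM-BCC range of 10.09 to 11.54, and the log2 fold change was −0.54 (SE 0.27, adjusted p 0.144). Igfbp5, a binding protein held in the matrix, was 29.4 CPM in the lowest, 67.3 CPM in the median and 223 CPM in the highest GEM-BCC tumor. In Tp-BCC tumors it was nearly constant, at 48.2 CPM in TP1, 49.4 CPM in TP2, 44.7 CPM in TP3 and 55.8 CPM in TP4, and 1.88% of tested genes had a lower SD than its 0.13 on the log2 scale. That SD was 0.36 with the GC trend removed. Its log2 fold change was −0.76 (SE 0.40, adjusted p 0.185 by edgeR).

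Igfbp6, which prefers Igf2, was next to Igf2 the member with the widest spread among GEM-BCC tumors. It was 5.22 CPM in GEM7, 24.9 CPM in the median tumor and 83.2 CPM in GEM3. In Tp-BCC tumors it was 27.9 CPM in TP1, 54.3 CPM in TP2, 27.4 CPM in TP3 and 73.7 CPM in TP4, all inside the GEM-BCC range. The log2 fold change was 0.55 (SE 0.55, adjusted p 0.506 by edgeR), and 0.17 (SE 0.52) with the GC trend removed. As for Igf2, tumors of 1 mouse lay far apart, with GEM8 9.66-fold above GEM7 and GEM3 3.34-fold above GEM2.

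The make-up of the binding proteins set the models apart more clearly than their total. The 6 genes summed to 582 to 1718 CPM per kb in GEM-BCC tumors, a range that overlapped the 778 to 1872 CPM per kb of Tp-BCC tumors. Igfbp2 made up 0.930% to 11.4% of that sum in GEM-BCC tumors. It made up 26.9% in TP1, 27.1% in TP2, 27.9% in TP3 and 26.4% in TP4, so that the share was alike in Tp-BCC tumors whose Igfbp2 level in CPM differed 2.27-fold. With the GC trend removed, the Igfbp2 level was itself alike in these tumors, at 8.41 to 8.54 log2 CPM. Transcript GC was 59.4% for Igfbp2, 58.6% for Igfbp4 and 59.0% for Igfbp7, so a library's GC trend acts on these genes nearly alike and largely drops out of the share. Igfbp4 held 37.6% to 53.3% of the sum in GEM-BCC tumors, beside 34.1% to 41.1% in the Tp-BCC group. Igfbp7 held 26.8% to 51.4% and 25.4% to 28.9% in the same order of models, and Igfbp3 4.21% to 13.1% and 3.04% to 5.40%. The shares describe transcripts per length and sum to 100 within a tumor, so a gain of one lowers the others. By median CPM per kb, the order in GEM-BCC tumors was Igfbp4 (510), Igfbp7 (422), Igfbp3 (85.3), Igfbp2 (45.8), Igf2 (37.2), Igfbp6 (22.4), Igf2r (13.9), Igf1r (12.6), Igfbp5 (11.2) and Igf1 (2.02). In Tp-BCC tumors it was Igfbp4 (436), Igfbp2 (309), Igfbp7 (308), Igfbp3 (50.8), Igfbp6 (37.0), Igf2r (19.8), Igf1r (12.7), Igfbp5 (8.13), Igf1 (1.55) and Igf2 (0.668). In GEM-BCC tumors 8 of the 9 neighboring pairs in this order had overlapping ranges, the exception being Igfbp5 above Igf1. In Tp-BCC tumors 6 of 9 overlapped, and the ranges were apart for Igfbp7 above Igfbp3, Igf2r above Igf1r and Igfbp5 above Igf1.

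**Figure D4:**
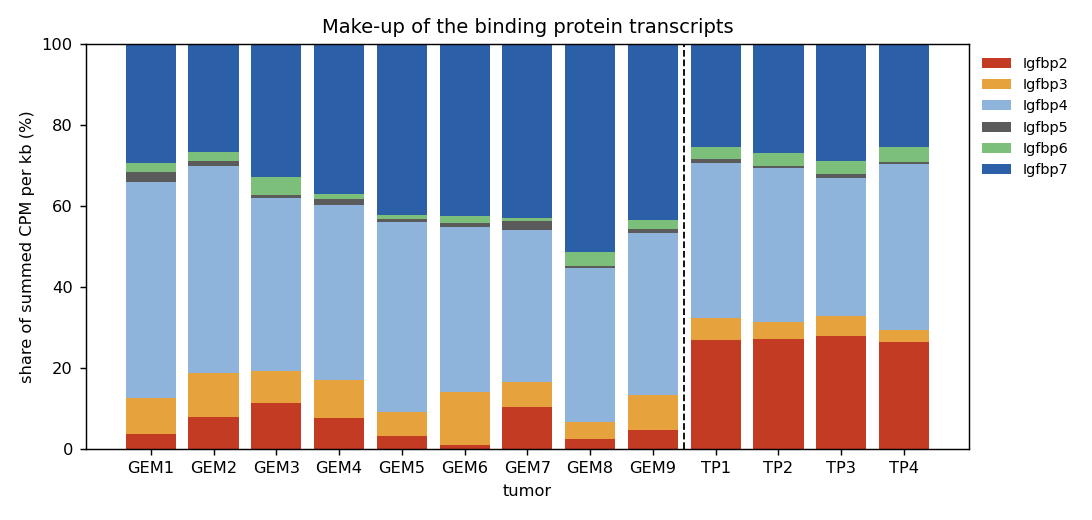
Share of each binding protein in the summed CPM per kb of the 6 measured ones, in percent, per tumor; the dashed line parts GEM-BCC from Tp-BCC tumors. Igfbp2 (red) reached at most 11.4% in GEM-BCC tumors, whereas the Tp-BCC tumors lay at 26.4% to 27.9%.

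Within GEM-BCC tumors some members varied together. Over the 9 tumors the log2 CPM of Igfbp4 had a Pearson r of 0.791 with Igfbp6, 0.773 with Igfbp3 and 0.707 with Igfbp7, and of −0.703 with Igf1r. Igf2 had its highest r among the members with Igfbp6 (0.561), and one of 0.083 with Igfbp2. These are descriptions of 9 points from 7 mice, in libraries that also differ in their GC trend, and with that trend removed they were 0.774, 0.790, 0.670, −0.711, 0.553 and 0.057. The genes most like Igfbp2 over the same tumors were Cfap20dc (0.930), Ovol2 (0.870), Wscd1 (0.860), Ndufaf5 (0.856) and Rtn4r (0.852), and none of these 5 was past an adjusted p of 0.05 between models by edgeR. Those most like Igfbp5 were Gpc1, Tmem185b, Actr1b, Retreg2 and Stk11ip (0.902 to 0.941). Those most like Igf1 were Ssb, Tmem106b, Chpt1, Ppp3ca and Mrgbp (0.942 to 0.959). With the GC trend removed the r ran from 0.712 to 0.942 for Igfbp5 and from 0.626 to 0.914 for Igf1. Between models, Actr1b (adjusted p 0.00116), Stk11ip (0.0259) and Ssb (0.0351) were past the adjusted p and higher by edgeR, and the others in these 2 sets did not pass.

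**Figure D5:**
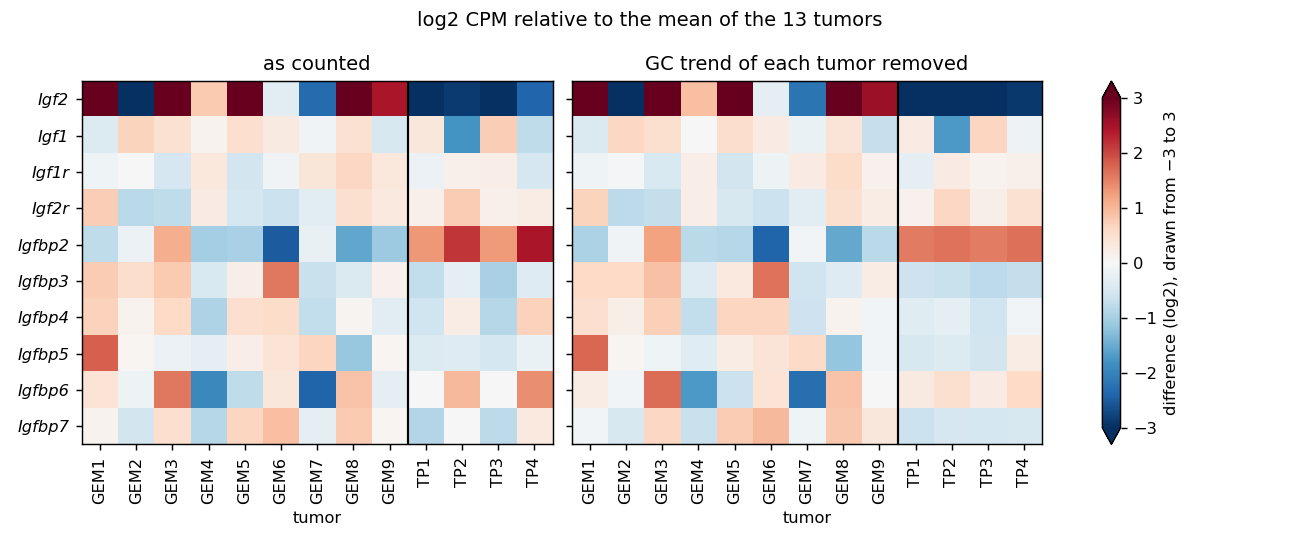
Log2 CPM of each gene in each tumor relative to its mean over the 13 tumors, as counted (left) and with the GC trend of each library removed (right), with GEM-BCC tumors left of the black line. Colors stop at 3 and −3, and Igf2 passes both ends; on the right the Tp-BCC tumors are alike for Igfbp2 (SD 0.06), Igfbp3 (SD 0.08) and Igfbp7 (SD 0.08).

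Beyond the members, 67 other genes of the pathway were listed, of which 55 were tested. Of these 55, 2 were past the adjusted p and higher and 2 were past it and lower, 7.27% in all where 19.4% of all tested genes were. Their median log2 fold change was −0.24. The count rests on single tumors and on GC, and the share of all tested genes past the adjusted p moved as well. The count was 10 without TP3 (20.5% of all tested genes), 8 without TP1 (16.6%) and 7 without GEM1 (20.3%). It was 2 without GEM6 (16.3%), GEM7 (15.6%) or GEM9 (15.9%), and 1 without TP2 (10.8%). With the GC trend removed it was 12 (28.4%). Only 1 of the 55 was called, where 5.57% of all tested genes were.

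That gene was Grb10, also an imprinted gene, which encodes an adaptor that binds the insulin and Igf1 receptors and dampens their signal. Grb10 was 66.5 CPM in the lowest, 102 CPM in the median and 150 CPM in the highest GEM-BCC tumor. It was 20.3 CPM in TP1, 16.1 CPM in TP2, 21.0 CPM in TP3 and 8.14 CPM in TP4, all below every GEM-BCC tumor. Its log2 fold change was −2.68 (SE 0.33, adjusted p 7.70e-05 by edgeR). Pik3r1, the regulatory subunit of phosphoinositide 3-kinase, was 38.6 CPM in the lowest GEM-BCC tumor and 28.8, 10.9, 36.3 and 4.21 CPM in TP1 to TP4, with no overlap and a change of −1.71 on the log2 scale (SE 0.45, adjusted p 0.0154). TP2 and TP4 were lower than TP1 and TP3, the same split as in the GC trend, and with that trend removed the log2 fold change was −1.51 (SE 0.24, adjusted p 5.32e-04).

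Higher in Tp-BCC tumors were the kinase genes Akt1 (log2 fold change 0.83, SE 0.26, adjusted p 0.0364) and Gsk3a (0.71, SE 0.23, adjusted p 0.0443), both by edgeR and both with ranges that overlapped. After removal of the GC trend Akt1 was at 0.44 (adjusted p 0.0341) and Gsk3a at 0.35 (adjusted p 0.0570), and with counts summed per mouse neither passed (adjusted p 0.0562 and 0.0579). The other receptor and docking genes did not pass, with log2 fold changes of −0.67 for the insulin receptor gene Insr (adjusted p 0.172), −0.72 for Irs1 (0.151) and −0.34 for Irs2 (0.364). Of the genes that free Igf from its binding proteins, the protease Pappa was at −0.96 (adjusted p 0.343) and its inhibitor Stc2 at −0.28 (0.474). The related inhibitor Stc1 was at 0.97 (SE 0.39, adjusted p 0.0949 by edgeR), and at 1.204 (SE 0.29, adjusted p 0.00722) with the GC trend removed. Of the Igf2 mRNA-binding genes, Igf2bp2 had 51 to 156 counts in Tp-BCC tumors, beside 12 to 194 in the GEM-BCC group, a log2 change of 1.73 (SE 0.61) for which edgeR gave an adjusted p of 0.0560, which was 0.0360 with the GC trend removed. Igf2bp1 was at −1.06 (adjusted p 0.195), and Igf2bp3, with at most 6 counts in any GEM-BCC tumor and at most 36 in any Tp-BCC tumor, was under the filter. Igfbp1 had values in Tp-BCC tumors alone, at 0 to 1 counts.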

How the data were processed

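Poly(A) RNA of 13 tumors was sequenced by the authors, 1 library each. Per the labels and the study's methods, SOAPnuke cleaned the reads, which Bowtie2 2.3.4.3 mapped to GRCm39 transcripts, with RSEM 1.3.1 for quantification, and the deposited values are expected counts per gene, not normalized. Of 21100 genes, 16687 had a value in all tumors. How the others came to lack one was not given in the sources used here. Columns were matched to tumors by their library names.

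Counts were rounded, genes were kept (14390) if 4 or more tumors had 10 or more counts, and models were compared in R 4.3.3 with edgeR 4.0.16 (TMM, quasi-likelihood F test, robust, all tumors, no covariate), with Benjamini-Hochberg adjustment over all tested genes. CPM used TMM-scaled totals, and log2 CPM a prior count of 2. SE is the log2 fold change over the square root of F. GC trends were removed by lowess (span 0.3) of each tumor's deviations on the GC content of GENCODE vM21 coding transcripts, entered as offsets, for 14097 genes; other genes had no GC correction. Igf2 was also tested by exact permutation. Code was tested on simulated data. DESeq2 1.42.0, other scalings and filters, counts summed per mouse, a replicate block and leaving out each tumor were the alternatives.

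The members and lists were chosen with earlier results of these data known. Named were all members, list genes past an adjusted p of 0.05 with a fixed set of others, the 5 genes most correlated with each of 4 members among genes of at least 1 mean log2 CPM in GEM-BCC tumors, and the 5 measured neighbors on each side of Igf2 and Igfbp7. Marker genes are named by their lists. The reference was GRCm38 (GENCODE vM21, RefSeq GRCm38.p6), not the build of the counts, and was used for names, gene order, lengths, GC content and upstream sequence. Separate tumors are the replicates, and with a single origin of all Tp-BCC tumors the p-values measure the spread between these tumors only.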

Additional observations from a re-analysis of the deposited data

Results flagged for a closer look

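Each member was checked in each model for a tumor standing apart from the rest, 20 groups in all, of which chance flags about 1 in 20. One was flagged. Igf2r in TP2 was 8.02 log2 CPM (260 CPM), beside 7.50 in the next highest Tp-BCC tumor, and this gap was 0.856 of the range of the 4 tumors, above the Dixon limit of 0.829. With the GC trend of each library removed, a setting chosen after seeing the data, TP2 was at 7.88 and TP4 at 7.71 log2 CPM, and the gap was 0.356 of the range, under the limit.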

How the results depend on the processing

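Over 24 alternatives for each of the 10 members, 231 log2 fold changes kept their direction and their side of an adjusted p of 0.05, 4 newly passed it, 3 no longer did and 2 turned sign, those of Igf1r with the GC trend removed (0.057) and of Igfbp4 without TP3 (0.042, in a range from −0.55 to 0.042 without 1 tumor). With the GC trend removed, members past the adjusted p went from 2 to 4 (Igf2, Igfbp2, Igfbp3 and Igfbp7) and members called from 2 to 1. Pathway genes past it went from 4 to 12. In that setting 28.4% of all tested genes passed, against 19.4% in the main fit, and 851 were called. Pathway genes were 9 in DESeq2's Wald test (26% of all tested genes passed) and 2 with counts summed per mouse (18.1%). They were 1 to 10 when leaving out 1 tumor (10.8% to 21.1%). The difference of Igf2 in mean log2 CPM ranged from −5.51 to −4.37 over the fits without 1 tumor. Causes were not tested. Called genes ranged over all settings with all 13 tumors from 439 with a stricter filter to 1013 with no filter, against 801. The Igf2 level of Tp-BCC tumors rests on 29 to 86 counts each.

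Replicate numbers only name the tumors, and deviations of same-numbered tumors correlated at −0.306 to −0.023. With a replicate block over tumors 1 to 4 of each model, 0 members passed the adjusted p in edgeR, 0 were called and 1 pathway gene passed. Igf2 was at −5.42 (adjusted p 0.316) and Igfbp2 at 2.03 (adjusted p 0.147, both by edgeR). Of all 13742 genes tested with the block, 1.3% passed and 179 were called. Without the block, in the same 8 tumors (chosen after seeing the data), 1 member passed, 1 was called and 1 pathway gene passed. The member was Igf2, at −7.03 (adjusted p 0.0261), while Igfbp2 did not pass, at 1.85 (adjusted p 0.0617, both by edgeR). Of all genes tested there, 4.6% passed and 453 were called. At an unadjusted p under 0.05 the block left 3 members.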
